A study of Mus musculus with 6 samples.

Results

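The genes described here are Ifit1, Ifit2 and Ifit3, the 3 rows of the IFIT family (interferon-induced proteins with tetratricopeptide repeats) taken by their symbols from the 24062 genes counted in each library. All 3 were present, and all 3 passed the filter on low counts that left 13185 genes for testing. RNA came from NIH3T3 cells, an established mouse fibroblast line, in 6 libraries of 4 groups. SPT6 siRNA with IFN-beta had 2 libraries (replicates 1 and 2), and so had the negative control siRNA with IFN-beta. SPT6 siRNA without IFN-beta and control siRNA without it had 1 library each (replicate 1). All cells had been transfected 48 h earlier, and the treated ones then had 100 units/ml of mouse IFN-beta for 4 h, whereas the untreated libraries are titled 0 h, so an effect of those hours and one of IFN-beta cannot be told apart. SPT6, encoded by Supt6, is an elongation factor and histone chaperone that travels with RNA polymerase II, and the study asked how it bears on interferon-stimulated transcription. Each target was addressed with a single siRNA product, per the labels' protocols, and the labels do not say whether replicates were separate cultures, so the p-values below speak of the spread among the libraries at hand, which may be technical.

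IFIT proteins are built of tetratricopeptide repeats, which form a groove that can hold RNA or other proteins, and have no known enzymatic activity. Interferon beta acts through its receptor and the kinases Jak1 and Tyk2 to assemble ISGF3, a complex with Stat2 and Irf9 among its subunits that binds interferon-stimulated response elements near the start of such genes. Ifit1 binds the ends of RNAs whose cap lacks the methyl mark of host mRNA and blocks their translation. Ifit2 has been linked to translation control, to cell death in human cells and to protection from viruses of the nervous system in mice, and human IFIT3 binds and steadies human IFIT1. Fibroblasts are a common cell in which this induction is studied.

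The 3 genes lie in 1 cluster of 6 Ifit genes on chromosome 19, which spans 99316 bases from 34550694 to 34650009 (GENCODE M21, GRCm38). Ifit2 (34550694 to 34576419), Ifit3 (34583531 to 34588731) and Ifit1 (34640871 to 34650009) are protein-coding genes on the plus strand. Between them lie 3 relatives whose rows carry older symbols, namely Ifit3b (row I830012O16Rik), Ifit1bl1 (Gm14446) and Ifit1bl2 (2010002M12Rik). The start regions of the members are shown because the members differ both in their untreated level and in how far they stood above it with IFN-beta. They are RefSeq promoter windows of 300 bases (250 before and 50 after the annotated start, GRCm38.p6). Capitals mark each match, on either strand, to GAAA, any 2 bases (NN) and GAAA again, the core of the interferon-stimulated response element, and no 2 matches overlap.

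Ifit1 (chr19:34640639-34640938, plus strand): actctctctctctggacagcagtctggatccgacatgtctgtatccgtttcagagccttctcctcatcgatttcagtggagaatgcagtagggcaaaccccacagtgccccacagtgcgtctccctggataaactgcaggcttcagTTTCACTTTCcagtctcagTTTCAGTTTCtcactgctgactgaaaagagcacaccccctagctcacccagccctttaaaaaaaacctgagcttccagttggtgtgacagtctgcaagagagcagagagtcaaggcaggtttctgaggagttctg
Ifit3 (chr19:34583279-34583578, plus strand): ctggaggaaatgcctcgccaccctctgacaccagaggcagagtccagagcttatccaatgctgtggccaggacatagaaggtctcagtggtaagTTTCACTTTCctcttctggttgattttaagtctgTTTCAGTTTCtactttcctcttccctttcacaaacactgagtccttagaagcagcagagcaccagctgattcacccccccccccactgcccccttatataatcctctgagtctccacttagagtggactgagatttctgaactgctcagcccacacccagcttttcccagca
Ifit2 (chr19:34550444-34550743, plus strand): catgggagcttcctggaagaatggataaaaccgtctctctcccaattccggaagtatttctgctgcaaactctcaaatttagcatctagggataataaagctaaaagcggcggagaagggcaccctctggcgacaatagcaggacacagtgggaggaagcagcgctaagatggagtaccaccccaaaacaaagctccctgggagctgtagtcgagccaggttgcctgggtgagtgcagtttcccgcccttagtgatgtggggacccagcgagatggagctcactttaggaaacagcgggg

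Ifit1 and Ifit3 held 2 matches each, and both had the same 2 letter strings, TTTCACTTTC and TTTCAGTTTC. In Ifit1 these began 104 and 85 bases before the start, and in Ifit3 156 and 122 bases before it. The Ifit2 window held 0 matches, as did a second RefSeq window of that gene (chr19:34550838-34551137), which says only that these letters are absent there. Of 32817 mouse windows of the same length, 3.43% held 1 or more matches and 0.222% held 2 or more. Among the relatives, Ifit3b held the same 2 strings as Ifit3, and both RefSeq windows of Ifit1bl1 held 1 match each, with the letters TTTCATTTTC. Ifit1bl2, on the minus strand, starts back to back with Ifit1, and 245 bases of their windows are the same DNA with the same 2 matches, whereas a second window of Ifit1bl2 held 0. A match is a string of letters and not a measured binding site. The start used by Ifit2 transcripts in these cells was not measured, and a link between matches and levels was not tested.

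Total counts in genes ran from 7935961 to 17596498 per library. Supt6 stood at 108 and 88.4 CPM (gene counts scaled to library size and normalisation factors) with SPT6 siRNA and IFN-beta, against 177 and 189 CPM with control siRNA and IFN-beta, and at 101 CPM against 175 CPM in the untreated pair. Of 10 fibroblast markers, 9 were above 1 CPM in all 6 libraries, with summed levels of 12500 to 19300 CPM. Epithelial, endothelial and lymphocyte markers summed to at most 0.957, 5.91 and 1.22 CPM, with Epcam, Krt5 and Cd3e at 0 counts throughout. Macrophage markers (5 of 6 in the files) summed to 15.2 and 18.3 CPM with SPT6 siRNA and IFN-beta and to 15 CPM with SPT6 siRNA untreated, against 8.96 and 7.72 CPM with control siRNA and IFN-beta and 11 CPM with control siRNA untreated.

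With IFN-beta, Ifit1 was among the most abundant transcripts of the cell, and without it among the scarce ones. Its level was 1063 and 444 CPM in the IFN-beta libraries with SPT6 siRNA and 2.998 CPM in the untreated library with SPT6 siRNA. Among control siRNA libraries it was 1724 and 833 CPM with IFN-beta and 2.14 CPM untreated. Every treated library thus stood far above both untreated ones, which rest on 25 counts with SPT6 siRNA (exact 95% Poisson interval 16.2 to 36.9) and 26 counts with control siRNA (17 to 38.1). Such intervals, here and below, cover counting error only. Ranked per kilobase of exon over 13041 tested genes with a known length, Ifit1 was in place 71 and 186 with SPT6 siRNA and IFN-beta, 45 and 99 with control siRNA and IFN-beta, 10678 with SPT6 siRNA untreated and 11111 with control siRNA untreated.

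Ifit3 had the same shape at a lower level. It stood at 311 and 100.4 CPM in the IFN-beta libraries with SPT6 siRNA and 1.68 CPM in the untreated one. In control siRNA cells Ifit3 stood at 494 and 189.8 CPM with IFN-beta and 2.46 CPM untreated. Treated and untreated libraries were again far apart, although the untreated levels rest on 14 counts with SPT6 siRNA (exact 95% Poisson interval 7.65 to 23.5) and 30 counts with control siRNA (20.2 to 42.8).

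Ifit2 differed from both in its untreated level. It stood at 202 and 97 CPM in the IFN-beta libraries with SPT6 siRNA and at 50.6 CPM in the untreated one. With control siRNA it stood at 254 and 152 CPM with IFN-beta and 58.5 CPM untreated. The untreated values rest on 422 counts with SPT6 siRNA and 712 with control siRNA, so counting error is smaller than for the other members, while the spread between untreated libraries is unknown for all 3. All 4 treated libraries were still above both untreated ones.

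**Figure D1:**
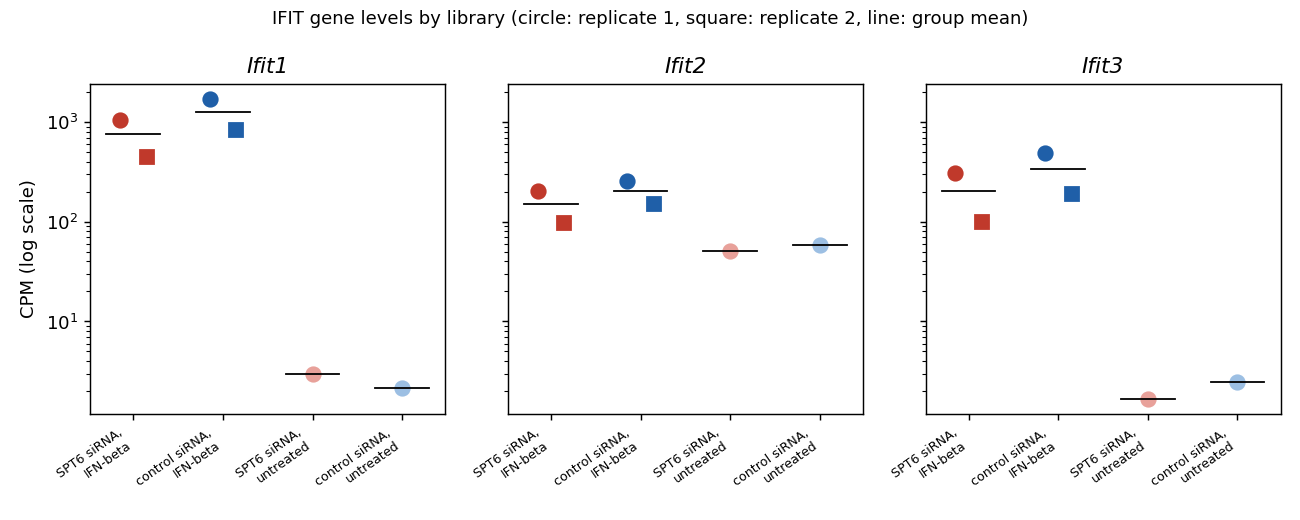
CPM on a log axis of Ifit1, Ifit2 and Ifit3 in each library, with groups in columns, replicate 1 as a circle, replicate 2 as a square and the group mean as a line. Ifit1 and Ifit3 lie at 1.68 to 2.998 CPM in the untreated libraries, where Ifit2 already stands at 50.6 and 58.5 CPM, and in both IFN-beta groups replicate 2 lies below replicate 1.

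The first question was how far each gene stood above its untreated level. Over the 1 untreated library of the same siRNA, Ifit1 was 355-fold and 148-fold higher with SPT6 siRNA and IFN-beta (counting intervals 240 to 548 and 100 to 229). In control siRNA cells it was 807-fold and 390-fold higher (551 to 1240 and 266 to 597). Ifit3 was 185-fold and 59.8-fold higher with SPT6 siRNA (110 to 339 and 35.5 to 110), and 201-fold and 77-fold higher with control siRNA (140 to 297 and 53.8 to 114). Ifit2 was 3.99-fold and 1.92-fold higher with SPT6 siRNA (3.59 to 4.44 and 1.71 to 2.15), and 4.35-fold and 2.6-fold higher with control siRNA (4.01 to 4.72 and 2.39 to 2.83). In each of the 4 treated libraries the fold of Ifit1 was the highest of the 3 and that of Ifit2 the lowest. Because both treated libraries of a siRNA are set against the same untreated one, these folds are not independent.

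In the fit over all genes, the log2 difference with SPT6 siRNA (IFN-beta minus untreated) was 7.97 ± 1.05 (SE) for Ifit1, 1.56 ± 0.55 for Ifit2 and 6.93 ± 1.41 for Ifit3. With control siRNA it was 9.22 ± 1.09 for Ifit1, 1.79 ± 0.55 for Ifit2 and 7.11 ± 1.35 for Ifit3. The edgeR quasi-likelihood test called 0 of the 3 members in the response with SPT6 siRNA (Benjamini-Hochberg adjusted p = 0.204, 0.813 and 0.596 for Ifit1, Ifit2 and Ifit3), where 0.0455% of all genes were called. It also called 0 of 3 in the response with control siRNA (edgeR adjusted p = 0.119, 0.512 and 0.348), where 0.137% of all genes were called. An unadjusted p under 0.05 was reached by all 3 in both responses, in each case with the treated libraries higher, as it was by 3.84% of all genes with SPT6 siRNA and 5.29% with control siRNA. DESeq2 called all 3 in both responses, beside 0.978% of all genes given an adjusted p with SPT6 siRNA and 1.64% with control siRNA. By limma-voom 0 of 3 were called in both, beside 0% of all genes with SPT6 siRNA and 0.0379% with control siRNA. The test has 2 residual degrees of freedom, both from the IFN-beta groups, in which the replicates of these genes lay far apart.

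Without 1 IFN-beta library, the log2 differences moved while their sign held. Each such fit leaves 1 residual degree of freedom, from the IFN-beta group that still has 2 libraries, and the groups of 1 library are assumed to vary like it. Over these fits the log2 difference of Ifit1 stayed between 7.20 and 8.45 with SPT6 siRNA and between 8.59 and 9.65 with control siRNA. That of Ifit2 stayed between 0.93 and 1.98 with SPT6 siRNA and between 1.37 and 2.12 with control siRNA. For Ifit3 it stayed between 5.89 and 7.51 with SPT6 siRNA and between 6.25 and 7.64 with control siRNA.

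The make-up of the IFIT transcripts differed between treated and untreated libraries. Summed over the 3 members, IFIT counts made up 0.157% and 0.0659% of all gene counts with SPT6 siRNA and IFN-beta and 0.00581% in its untreated library. With control siRNA the sums were 0.235% and 0.112% with IFN-beta and 0.00642% untreated. Ifit1 held 67.5% and 69.2% of the summed counts with SPT6 siRNA and IFN-beta (95% Wilson intervals 66.7 to 68.2 and 68.1 to 70.3), against 5.42% in the untreated library (3.7 to 7.88). With control siRNA it held 69.7% and 70.9% with IFN-beta (69.2 to 70.2 and 70.3 to 71.5), against 3.39% untreated (2.32 to 4.91). Ifit2 held 91.5% (88.6 to 93.7) and 92.7% (90.6 to 94.3) of the sum in the untreated libraries with SPT6 and control siRNA. Among these counts, untreated cells thus carried mostly Ifit2, and treated cells mostly Ifit1. The share of Ifit3 may be too low, because reads not uniquely aligned were left out. Of its 50-base windows 51.2% also occur in Ifit3b, whereas 7.13% of those of Ifit1 and 0% of those of Ifit2 occur in another Ifit gene.

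Scaled by exon length (2656 bases for Ifit1, 3927 for Ifit2 and 1745 for Ifit3), the order of the members within a library held. Per kilobase, Ifit1 held 63.5% and 67% with SPT6 siRNA and IFN-beta and 65.1% and 68% with control siRNA and IFN-beta. Ifit3 held 28.3% and 23.1% with SPT6 siRNA and 28.4% and 23.6% with control siRNA, and Ifit2 8.16% and 9.91% with SPT6 siRNA and 6.49% and 8.39% with control siRNA. In the untreated libraries Ifit2 held 86% with SPT6 siRNA and 87% with control siRNA. Among the treated libraries the share of each member thus moved by a few percentage points. Of the summed counts, Ifit2 held 12.8% and 15.1% with SPT6 siRNA and IFN-beta (95% Wilson intervals 12.3 to 13.3 and 14.3 to 16). With control siRNA and IFN-beta it held 10.3% and 12.9% (9.96 to 10.6 and 12.5 to 13.4).

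**Figure D2:**
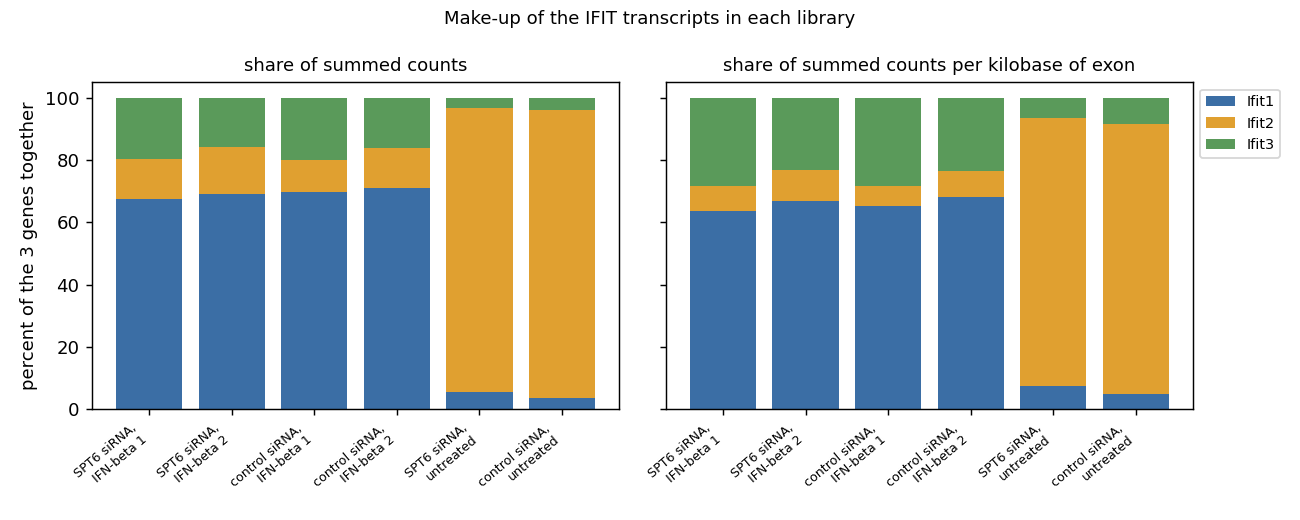
Percent of the summed counts (left) and of the summed counts per kilobase of exon (right) that each of Ifit1, Ifit2 and Ifit3 holds in each of the 6 libraries. Ifit1 holds 67.5% to 70.9% of the counts in the IFN-beta libraries, and Ifit2 holds 91.5% and 92.7% in the untreated ones. Reads that fit both Ifit3 and Ifit3b may be missing from Ifit3.

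The ratio of Ifit3 to Ifit1 counts within a library was 0.293 and 0.226 with SPT6 siRNA and IFN-beta, and 0.287 and 0.228 with control siRNA and IFN-beta. It was thus close between the siRNAs within each replicate number and lower in replicate 2 of both. The ratio of Ifit2 to Ifit1 counts was 0.19 and 0.219 with SPT6 siRNA and IFN-beta, and 0.147 and 0.182 with control siRNA and IFN-beta. In the untreated pair it was the lower one with SPT6 siRNA, at 16.9 against 27.4 with control siRNA. These ratios were not tested, as 2 libraries against 2 cannot go below an exact two-sided permutation p of 0.333.

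The second question was whether SPT6 siRNA altered the level reached with IFN-beta. The means were lower with SPT6 siRNA for all 3 genes, but each gene's groups overlapped. Ifit1 averaged 753.5 CPM ± 438 (SD, n = 2) with SPT6 siRNA and 1278 CPM ± 630.4 (SD, n = 2) with control siRNA. Ifit2 averaged 149 CPM ± 74.2 with SPT6 siRNA and 203 CPM ± 72.3 with control siRNA (SD, n = 2 each). Ifit3 averaged 206 CPM ± 149 with SPT6 siRNA and 342 CPM ± 215 with control siRNA (SD, n = 2 each). For each gene SPT6 siRNA replicate 1 lay above control replicate 2, by 1.28 times for Ifit1, 1.33 times for Ifit2 and 1.64 times for Ifit3.

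Replicates within a group differed by more than the siRNAs did. Replicate 2 stood at 0.417, 0.48 and 0.323 times replicate 1 for Ifit1, Ifit2 and Ifit3 with SPT6 siRNA, and at 0.483, 0.598 and 0.384 times with control siRNA. Among libraries of the same replicate number, the SPT6 siRNA library stood at 0.617 (replicate 1) and 0.533 (replicate 2) times the control library for Ifit1. The same ratios were 0.794 and 0.638 for Ifit2, and 0.629 and 0.529 for Ifit3. All 6 ratios were thus below 1, with Ifit2 nearest to it in both numbers. The share of all genes below 1 in both numbers was not computed. In the fit over all genes, 52% of genes had a log2 difference below 0, as had all 28 other antiviral genes listed below. The labels do not say what a replicate number stands for.

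In the fit over all genes, the log2 difference (SPT6 siRNA minus control siRNA, both with IFN-beta) was -0.76 ± 0.53 (SE) for Ifit1, -0.44 ± 0.41 for Ifit2 and -0.73 ± 0.71 for Ifit3. The edgeR quasi-likelihood test called 0 of the 3 (adjusted p = 0.615, 0.719 and 0.735), and of all 13185 genes 0% were called. No member had an unadjusted p under 0.05, which 4.31% of all genes reached with SPT6 siRNA lower, and DESeq2 and limma-voom also called 0 of 3, beside 0.499% and 0% of all genes given an adjusted p. All of these fits left out the replicate number. With it as a block, which the labels do not state to be a pairing, edgeR called 3 of 3, beside 2638 of the 13185 genes. For 0 of the 3 members were the groups apart with SPT6 siRNA lower, a pattern that 21.3% of all genes had. In bulk RNA, fewer responding cells and less RNA per cell cannot be told apart. The macrophage marker sum given above was higher in the SPT6 siRNA libraries. Of its 5 genes, Cd68 stood at 7.75 and 9.92 CPM with SPT6 siRNA and IFN-beta against 2.71 and 2.2 CPM with control siRNA and IFN-beta. Cd14 stood at 4.59 and 5.04 CPM against 3.16 and 4.04 CPM, and Csf1r at 1.84 and 3.22 CPM against 1.73 and 1.07 CPM, in the same order of groups. Lyz2 stood at 1.02 and 0 CPM against 1.13 and 0.356 CPM, and Ptprc at 0 and 0.087 CPM against 0.226 and 0.0594 CPM. Summed fibroblast markers were at 13200 and 12500 CPM with SPT6 siRNA and IFN-beta against 19300 and 16900 CPM with control siRNA and IFN-beta. The part of these marker levels in the IFIT values was not tested.

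Each library moved these differences. Without control IFN-beta replicate 1 they were -0.14, -0.02 and 0.12 for Ifit1, Ifit2 and Ifit3, so that the sign of Ifit3 turned. Without SPT6 siRNA IFN-beta replicate 2 they were -0.28, -0.02 and -0.15. Without control IFN-beta replicate 2 they were -1.19, -0.77 and -1.26, and without SPT6 siRNA IFN-beta replicate 1 -1.54, -1.08 and -1.78. The edgeR test called none of the 3 in any of these fits, whose adjusted p-values ran from 0.353 to 0.996. In the fit without SPT6 siRNA IFN-beta replicate 1, SPT6 siRNA with IFN-beta is the lowest treated library alone. The spread in that fit is that of the 2 control IFN-beta libraries.

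**Figure D3:**
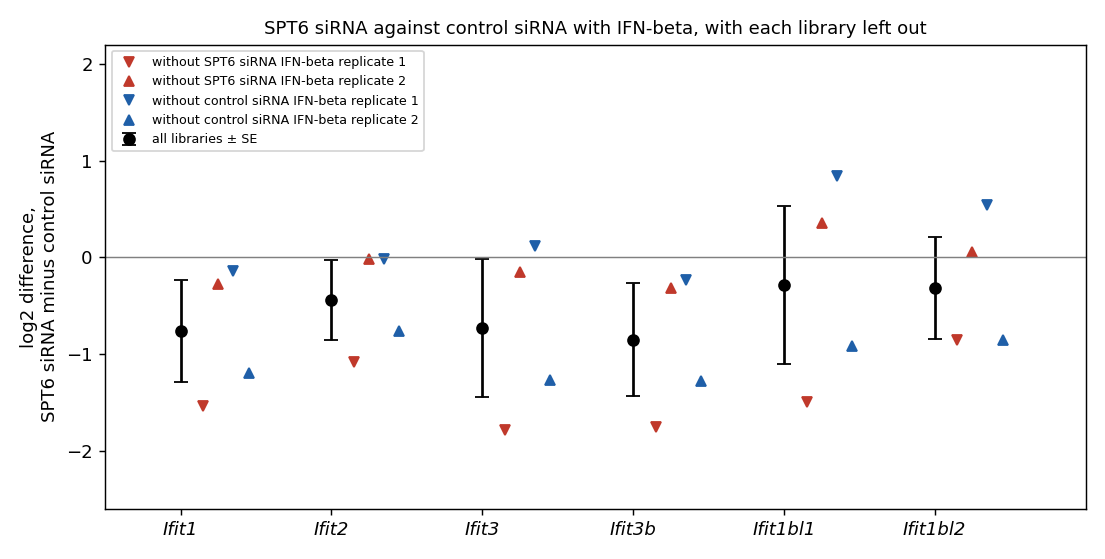
Log2 difference between SPT6 siRNA and control siRNA with IFN-beta for the 6 Ifit genes (black, ± SE over all libraries), with the value obtained when each IFN-beta library is left out (triangles). Over all libraries every gene lies below 0, and without control IFN-beta replicate 1 the values of Ifit3, Ifit1bl1 and Ifit1bl2 lie above 0.

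The untreated pair gave no test, having 1 library on each side. Ifit1 had 25 counts with SPT6 siRNA and 26 with control siRNA, a ratio of 1.4 after scaling to depth (counting interval 0.777 to 2.53). Ifit3 had 14 and 30 counts, a ratio of 0.681 (0.334 to 1.32), and Ifit2 had 422 and 712 counts, a ratio of 0.865 (0.765 to 0.977). For Ifit1 and Ifit3 the intervals include 1, so that a difference within these bounds was not detectable at this depth.

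It was also asked whether the IFN-beta response, taken over the untreated level, differed between siRNAs. The difference of responses (SPT6 siRNA minus control siRNA, log2) was -1.25 ± 1.24 (SE) for Ifit1, -0.23 ± 0.73 for Ifit2 and -0.18 ± 1.85 for Ifit3. The edgeR test called 0 of the 3 (adjusted p = 1 for each) and 0% of all genes, and 0 members had an unadjusted p under 0.05, against 0.379% of all genes. DESeq2 and limma-voom called 0 of the 3 as well, and 0% of all genes. The value for Ifit1 takes in its untreated levels, which rest on 25 counts with SPT6 siRNA and 26 with control siRNA. The signs of Ifit2 and Ifit3 turned to 0.20 and 0.68 without control IFN-beta replicate 1 and to 0.17 and 0.38 without SPT6 siRNA IFN-beta replicate 2.

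The relatives in the cluster were, like the members, higher in the IFN-beta libraries than in the untreated ones, at other levels. Ifit3b, a near copy of Ifit3, stood at 187 and 69.2 CPM with SPT6 siRNA and IFN-beta and 0.719 CPM in that untreated library, and at 311 and 151 CPM with control siRNA and IFN-beta and 0.74 CPM untreated. The longest annotated transcripts of Ifit3 and Ifit3b are identical at 98% of 1697 aligned bases, and 51.2% of the 50-base windows of Ifit3 also occur in Ifit3b. The split of reads between these genes is therefore uncertain, and reads that fit both may be missing from both. Their sum was 498 and 169.6 CPM with SPT6 siRNA and IFN-beta against 2.4 CPM untreated, and 805.5 and 341 CPM with control siRNA and IFN-beta against 3.21 CPM untreated. For Ifit1 7.13% of such windows occur in another Ifit gene, and for Ifit2 0%.

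Ifit1bl2, which starts back to back with Ifit1, stood at 31.2 and 16.6 CPM with SPT6 siRNA and IFN-beta and 0.36 CPM untreated, a level of 3 counts. With control siRNA it stood at 43.1 and 16.6 CPM with IFN-beta and 0.822 CPM untreated. Per kilobase of exon its level was 0.0231 and 0.0295 times that of Ifit1 in the IFN-beta libraries with SPT6 siRNA, and 0.0197 and 0.0157 times with control siRNA. Ifit1bl1 stood at 20.3 and 5.65 CPM with SPT6 siRNA and IFN-beta and 0.24 CPM untreated, and at 24.4 and 7.24 CPM with control siRNA and IFN-beta and 0.493 CPM untreated. Over the untreated library of the same siRNA, Ifit1bl1 was 84.6-fold and 23.6-fold higher with SPT6 siRNA and 49.5-fold and 14.7-fold higher with control siRNA, and Ifit1bl2 86.7-fold and 46.2-fold against 52.4-fold and 20.2-fold. Their difference of responses (SPT6 siRNA minus control siRNA, log2) was 0.72 ± 2.71 for Ifit1bl1 and 0.85 ± 1.63 for Ifit1bl2, above 0 where the 3 members were below it, and -0.81 ± 2.07 for Ifit3b. The untreated levels behind these values are 2 and 3 counts of Ifit1bl1 and Ifit1bl2 with SPT6 siRNA and 6 and 10 counts with control siRNA. With all libraries the edgeR test called 0 of these 3 relatives in any of the 4 comparisons. Of all genes it called 0.0455% and 0.137% in the responses with SPT6 and control siRNA, and 0% in the others. DESeq2 called all 3 relatives in both responses, beside 0.978% and 1.64% of all genes given an adjusted p, and none in the other comparisons. By limma-voom none was called. With 1 IFN-beta library left out, the log2 difference in the response with control siRNA ran from 7.64 to 8.69 for Ifit3b. For Ifit1bl2 it ran from 4.31 to 5.69. All 3 passed the low-count filter only through the IFN-beta libraries.

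Genes beside the cluster, within 100000 bases of it, did not share this pattern of levels. Lipa, which encodes the lysosomal acid lipase and is the nearest counted gene beside Ifit2, stood at 161 and 114 CPM with SPT6 siRNA and IFN-beta and 103 CPM untreated, and at 128 and 89 CPM with control siRNA and IFN-beta and 89.9 CPM untreated. Its log2 difference with IFN-beta was 0.41 ± 0.31 (SE) with SPT6 siRNA and 0.27 ± 0.31 with control siRNA (edgeR adjusted p = 0.9 and 0.832). Slc16a12, on the other side beyond Ifit1, had at most 1 count in any library. Ch25h, beyond Lipa, had 0 counts in all 6 libraries, which allows up to 3 counts in each.

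**Figure D4:**
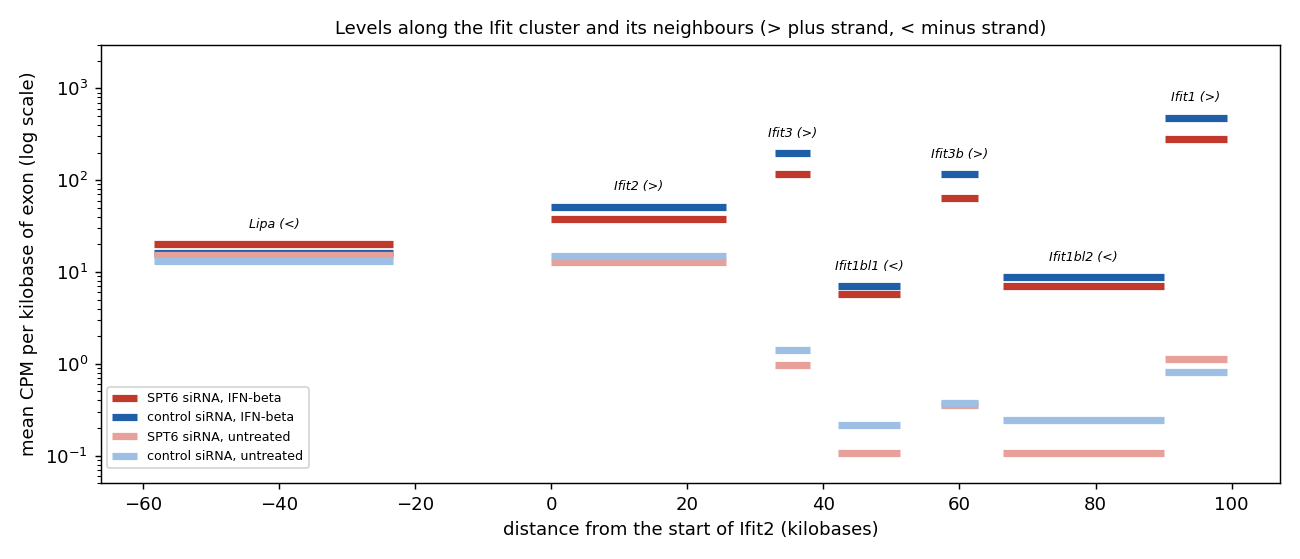
Mean CPM per kilobase of exon (log axis) of each counted gene along the Ifit cluster, drawn over its span in kilobases from the start of Ifit2, with 1 line per group. The 6 Ifit genes lie higher in both IFN-beta groups than in either untreated group, whereas the lines of Lipa lie together (Slc16a12, with at most 1 count, and Ch25h, with 0, are not drawn).

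Genes whose levels followed each member most closely were found by the root mean square difference of log2 CPM, centred on each gene's mean, over the 6 libraries. Nearest to Ifit1 were Mx2 (0.387), Cxcl10 (0.434), Ifit3b (0.47), Oasl2 (0.492) and Iigp1 (0.604). These are an antiviral GTPase gene, a chemokine gene, the near copy of Ifit3, a member of the oligoadenylate synthetase family and an immunity-related GTPase gene. Nearest to Ifit3 were Tgtp1 (0.163), Mx1 (0.179), Tgtp2 (0.305), Ifi44 (0.318) and Oas2 (0.333). All of these except Ifit3b had 3 or fewer counts in at least 1 untreated library, so the distances depend on the prior count of 2.

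Nearest to Ifit2 was a different group, namely Ube2l6 (0.0833), AW011738 (0.131), Trim30a (0.161), Trim12c (0.198) and Tor1aip1 (0.225). Ube2l6 encodes the conjugating enzyme of the ISG15 pathway, and Trim30a and Trim12c belong to the tripartite motif family. Ube2l6 stood at 48.8 and 27.1 CPM with SPT6 siRNA and IFN-beta and 14 CPM untreated, and at 68.2 and 44.1 CPM with control siRNA and IFN-beta and 16.2 CPM untreated. Like Ifit2, it was thus already present at a measurable level before treatment. From Ifit2, Ifit3 lay at a distance of 2.43 and Ifit1 at 3.21, whereas Ifit1 and Ifit3 lay 0.848 apart.

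Upstream of the members, the 10 listed genes of the receptor and its signalling were all tested. In the response with SPT6 siRNA 0 were called (0.0455% of all genes) and 5 had an unadjusted p under 0.05 with IFN-beta higher (3.84% of all genes), among them Irf9 (log2 3.13 ± 0.37) and Stat2 (2.60 ± 0.37), subunits of ISGF3. With control siRNA 1 was called, Irf9, which rose by 3.22 ± 0.36 (edgeR adjusted p = 0.0436), where 0.137% of all genes were called. Again 5 had an unadjusted p under 0.05 and were higher, as were 5.29% of all genes. The median of the list was 0.73 with SPT6 siRNA and 0.94 with control siRNA, beside 0.005 and -0.01 over all genes. The receptor genes Ifnar1 and Ifnar2 were at -0.04 ± 0.23 and -0.18 ± 0.31 with SPT6 siRNA, and at -0.05 ± 0.22 and -0.10 ± 0.31 with control siRNA. Between the siRNAs with IFN-beta, 0 of 10 were called and the median was -0.02, with Jak1 at 0.29 ± 0.16.

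Beside the members, 28 other antiviral genes induced by interferon were listed, and all 28 were tested. In the response with SPT6 siRNA, where 0.0455% of all genes were called, 2 were called higher, Cxcl10 (949 and 860 counts with IFN-beta, 4 untreated) and Trim25, a ubiquitin ligase gene, which rose by log2 2.48 ± 0.24. In the response with control siRNA 5 were called higher, beside 0.137% of all genes. They were Mx2 (1932 and 1548 counts with IFN-beta, 1 untreated), Cxcl10 (2281 and 2131 counts, 3 untreated), Rtp4 (log2 5.53 ± 0.53), Irf7 (log2 5.19 ± 0.55) and Trim25 (2.70 ± 0.24). All 28 were above 0 in both responses, as were 50.7% of all genes with SPT6 siRNA and 49.4% with control siRNA. The list's median was 5.03 with SPT6 siRNA and 5.17 with control siRNA, or 4.77 and 5.15 with genes at 3 or fewer untreated counts at their counting ratio or floor, and 11 of the 28 passed the filter only through IFN-beta libraries. Between the siRNAs with IFN-beta 0 of 28 were called and all 28 were below 0, as were 52% of all genes, with a median of -0.54 beside -0.02 over all genes. The smallest p-values were those of Cxcl10, at -0.80 ± 0.23, and Mx2, at -0.74 ± 0.34 (edgeR adjusted p = 0.349 and 0.463). These genes were listed with earlier results of these data known, and the control IFN-beta libraries serve in more than 1 of these comparisons.

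Genes of the processes on which IFIT proteins act were also listed. Of 10 genes of cap formation, cap binding and decapping, 0 were called in any of the 4 comparisons, which is near the share of all genes called (0.0455% and 0.137% in the responses with SPT6 and control siRNA, and 0% in the others). Cmtr1, whose product adds the cap methyl mark that shields host mRNA from IFIT1, stood 0.58 ± 0.25 higher with IFN-beta on the log2 scale with SPT6 siRNA and 0.91 ± 0.25 higher with control siRNA (edgeR adjusted p = 0.851 and 0.435). Dcp2, a decapping enzyme gene, stood 1.12 ± 0.22 higher with SPT6 siRNA and 1.36 ± 0.22 higher with control siRNA (edgeR adjusted p = 0.334 and 0.139). Between the siRNAs with IFN-beta the smallest p-values were those of Pcif1, whose product methylates the base next to the cap, at -0.41, and Fam103a1, whose product activates the cap methyltransferase, at 0.35 (edgeR adjusted p = 0.439 and 0.493). Of 13 listed subunit genes of eIF3, the initiation factor that human IFIT1 and IFIT2 bind, 12 were tested and 0 were called in any comparison, beside the same shares of all genes. Their log2 differences lay between -0.14 and 0.33 in the response with SPT6 siRNA, between -0.28 and 0.63 in that with control siRNA, and between -0.40 and 0.12 between the siRNAs with IFN-beta.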

How the data were processed

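RNA was extracted with TRIzol and sequenced in pairs, per the labels' protocols. The authors deposited whole-number counts per gene symbol for each library, not normalised. TopHat2 2.1.0, HTSeq 0.6.1p1, DESeq2, mm10 and GRCm38 are named in the submitters' processing notes without roles. Neither the gene annotation nor the strand setting of the counting is named in those notes, and reads from overlapping or antisense genes cannot be told apart. Rows without a gene made up 62% to 67.1% of the reads listed (27.9% to 31.3% not uniquely aligned) and entered neither library sizes nor tests.

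From these counts, genes were kept by filterByExpr by group (minimum count 10, a cutoff of 0.864 CPM). They were scaled by TMM factors and tested in R 4.3.3 with edgeR 4.0.16 (robust glmQLFit, glmQLFTest) with a mean for each of the 4 groups, all 6 libraries in the fit and the replicate number left out. Benjamini-Hochberg adjusted p under 0.05 over all genes was the threshold. A standard error was obtained by dividing the log2 difference by the square root of its F statistic. The untreated groups of 1 library are assumed to vary like the IFN-beta groups. DESeq2 1.42.0 and limma 3.58.1 (limma-voom) served as alternatives, as did other scalings, filters, a replicate block and leaving out each IFN-beta library. On simulated counts the edgeR step recovered 97.9% of genes changed 4-fold in the SPT6 siRNA comparison with IFN-beta, 92.7% in the response with control siRNA and 59.4% in the difference of responses. False calls were 10 of 208, 10 of 203 and 11 of 169 in these comparisons. Changes below 4-fold were not simulated, so the rates do not cover the smaller differences of the members between siRNAs with IFN-beta (log2 -0.76 to -0.44). The simulated spread followed the fitted trend with mean level, with no difference between replicate numbers. With IFN-beta, replicate 2 of the members stood at 0.323 to 0.598 times replicate 1, so these rates need not hold for them. Supt6, the siRNA target, was not called between the siRNAs with IFN-beta (log2 difference -0.90 ± 0.18, edgeR adjusted p = 0.247).

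Of the 24062 symbols, 98.2% were matched to GENCODE M21, and exon lengths are unions over its transcripts. Same-group libraries were not duplicates (chi-square per degree of freedom 35 with SPT6 siRNA and 39.6 with control siRNA). The members and lists were chosen with earlier results of these data known. Named genes were the members, other Ifit rows, genes within 100000 bases of the cluster, Supt6, the 5 genes nearest to each member in pattern, and for each list up to 2 highest and 2 lowest called genes, or the 2 with the smallest p. Rtp4, Ifnar1 and Ifnar2 were named outside this rule after their values were seen. Values of some list members are not reported here.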

Additional observations from a re-analysis of the deposited data

How the results depend on the processing

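Of the counts of members called, scaling and filtering moved none. DESeq2 called 3 of 3 members in both responses. Over all genes, library size scaling gave 12 calls in the response with SPT6 siRNA, and no filter gave 46, with 77 in the response with control siRNA and 66 between the siRNAs with IFN-beta. The stricter filter gave 8 with control siRNA. DESeq2 gave 129 calls in the response with SPT6 siRNA, 204 with control siRNA and 62 between siRNAs, and limma-voom 0 and 5 in the responses with SPT6 and control siRNA. With the replicate number as a block, edgeR called 3 of 3 members in both responses and 3 of 3 between the siRNAs with IFN-beta (Ifit1 -0.80 ± 0.17, Ifit2 -0.49 ± 0.14 and Ifit3 -0.79 ± 0.15, edgeR adjusted p = 5.21e-05, 0.00635 and 3.97e-06). Of the 13185 genes tested, the block fit called 545 in the response with SPT6 siRNA and 957 in the response with control siRNA. It called 2638 of the 13185 in the comparison of siRNAs, so that calls there were common among all genes, and 4 in the difference of responses. The replicate numbers are not stated to pair the samples. The deviations of same-numbered IFN-beta libraries correlated with r = 0.56 over 13185 genes, which 2 pairs cannot establish as a pairing. The cause of these moves was not tested.

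With 1 IFN-beta library left out, calls ran from 9 to 25 (members 0 to 1) in the response with SPT6 siRNA and from 16 to 52 (members 0 to 1) with control siRNA, and stayed at 0 in the others. Log2 differences between siRNAs with IFN-beta ran from -1.54 to -0.14 for Ifit1, -1.08 to -0.02 for Ifit2, -1.78 to 0.12 for Ifit3, -1.49 to 0.84 for Ifit1bl1 (row Gm14446) and -0.86 to 0.54 for Ifit1bl2 (2010002M12Rik). The difference of responses ran from -0.89 to 0.20 for Ifit2, -1.25 to 0.68 for Ifit3 and -0.50 to 1.86 for Ifit1bl1. Per kilobase of exon in place of counts, mean shares of Ifit1, Ifit2 and Ifit3 were 65.2%, 9.04% and 25.7% with SPT6 siRNA and IFN-beta, 66.6%, 7.44% and 26% with control siRNA and IFN-beta, 7.54%, 86% and 6.42% with SPT6 siRNA untreated, and 4.7%, 87% and 8.25% with control siRNA untreated. Depth limits the untreated levels of Ifit1 and Ifit3, which rest on 14 to 30 counts.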
